A study of Mus musculus with 12 samples.

Results

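The MHC class II antigen presentation genes described here are H2-Aa, H2-Ab1, H2-Eb1, Cd74, H2-DMa and Ciita, 6 of the 50563 genes in the count table, chosen by name and matched to it by Ensembl identifier. RNA-Seq was carried out on the cortex of 12 E4FAD mice, with 1 library per mouse, to learn what oral DPAn-6 does in the late-stage Alzheimer's disease model. CTRL mice (n = 7) received the vehicle, which held antioxidants, and DPAn-6 mice (n = 5) received docosapentaenoic acid of the n-6 series, a long-chain product of linoleic acid, both by daily gavage. Libraries held 15208803 to 26520251 counts on genes, and 2 CTRL and 2 DPAn-6 mice were 12 months old while 5 CTRL and 3 DPAn-6 mice were 14 months old. Every mouse, controls included, was APOE4+/+ (human APOE4 in place of the mouse gene) and 5FAD-/+ (familial Alzheimer's disease transgenes driven in neurons), so there is no amyloid-free or untreated group.

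MHC class II molecules show peptides from engulfed proteins to CD4 T cells. An alpha and a beta chain (H2-Aa with H2-Ab1 for I-A, and an E alpha chain with H2-Eb1 for I-E) assemble on the invariant chain CD74, proteases trim that chain in the endosome, and the H2-DM dimer then swaps the remaining fragment for an antigen peptide. CIITA, which does not bind DNA itself, switches the genes on by docking onto factors held at shared promoter boxes, and in the brain the genes are known from microglia reacting to amyloid and from macrophages at the brain's borders.

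The promoters are shown because the shared boxes are the textbook link between the genes. RefSeq promoters (GRCm38.p6, 250 bases before to 50 after the annotated start) were matched for 7 of 10 class II genes, among them H2-Aa, H2-Eb1 and H2-DMa. H2-Ab1, Cd74 and Ciita were not matched. Bases 120 to 21 before the start are printed on the gene's own strand, 5′ to 3′, with capitals marking exact matches to the letters TGATTGG (the Y-box, read by NF-Y), TGACGTCA (the palindrome read by CREB) or AGCAAC (letters of the X-box, read by RFX).
H2-Aa, chr17:34287844-34287943, minus strand: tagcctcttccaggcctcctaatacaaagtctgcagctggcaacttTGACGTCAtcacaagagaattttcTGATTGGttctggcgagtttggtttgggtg
H2-Eb1, chr17:34305747-34305846, plus strand: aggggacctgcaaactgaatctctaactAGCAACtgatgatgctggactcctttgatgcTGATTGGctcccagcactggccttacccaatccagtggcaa
H2-DMb1, chr17:34153071-34153170, plus strand: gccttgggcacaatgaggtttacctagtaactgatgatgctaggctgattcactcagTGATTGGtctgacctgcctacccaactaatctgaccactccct
H2-DMa, first of 2 annotated starts, chr17:34122712-34122811, plus strand: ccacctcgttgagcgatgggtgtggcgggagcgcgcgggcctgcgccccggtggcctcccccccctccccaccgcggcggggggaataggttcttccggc

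The Y-box letters TGATTGG were found on either strand in 7.82% of 32851 RefSeq promoters. They were present in 6 of the 7 matched genes, on the gene's own strand in each, starting 50 bases before the start of H2-Aa, 61 before H2-Eb1, 63 before H2-DMb1, 92 before H2-DMb2, 45 before H2-Oa and 59 before H2-Ob. TGACGTCA was found in 1.79% of promoters and stood 74 bases before the start of H2-Aa. AGCAAC was found in 14.8% of promoters and stood 92 bases before the start of H2-Eb1, 77 before H2-Oa and 88 before H2-Ob. None of these letters was found in the windows of the 2 annotated H2-DMa starts, which says only that these exact letters are not there. Both windows lie inside the annotated H2-DMa span (34119541 to 34139101), away from its first base. Brd2, on the minus strand, spans 34112023 to 34122634, so its first base lies just outside the first printed H2-DMa stretch. Which start makes the counted mRNA was not tested. The letters were picked after the sequences had been read, so the matches are a description.

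**Figure D1:**
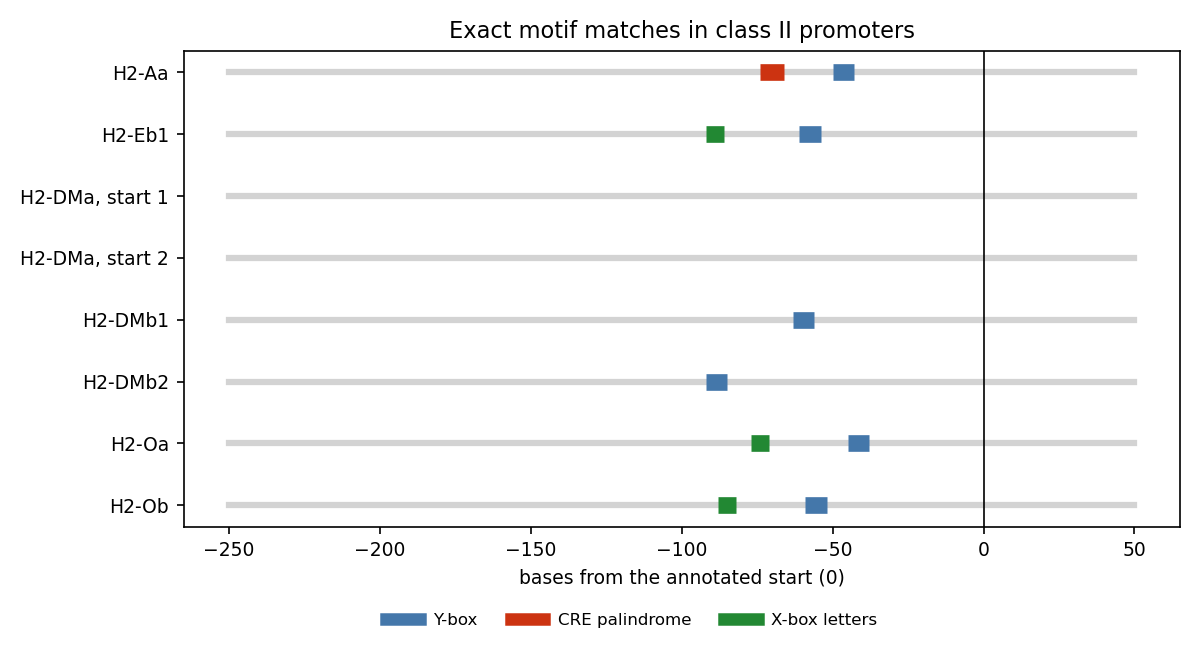
Exact matches to 3 motifs in RefSeq promoters of 7 class II genes, by distance in bases from the annotated start. Grey lines are the windows searched and coloured blocks the matches, with the Y-box letters between 92 and 45 bases before the start in 6 genes and no match in the windows of the 2 H2-DMa starts.

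The class II chains and their chaperone Cd74 had lower mean mRNA levels in DPAn-6 than in CTRL mice, with a wide spread among CTRL mice, and H2-DMa had a smaller difference. Of the 5 members that passed the filter on low counts, 1 (H2-Ab1) passed edgeR's quasi-likelihood test at an adjusted p below 0.05, and the others had adjusted p between 0.0587 and 0.111. Over all genes 1.14% passed the same test in the lower direction and 1.55% in either direction. At an unadjusted p below 0.05 all 5 tested members were lower in DPAn-6, beside 9.02% of all genes. H2-Aa, H2-Ab1, H2-Eb1 and Cd74 varied together across mice, so the members are not independent. They were also chosen with earlier results of these data known, so this count is a description. In whole cortex, fewer cells of a type and less RNA per cell cannot be told apart. Values are CPM, counts scaled to each library's total on genes, and p-values measure the spread between mice.

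H2-Ab1 (ENSMUSG00000073421), on the plus strand of chromosome 17 at 34257689 to 34269419 in GRCm38, encodes the I-A beta chain. In CTRL mice it ranged from 3.70 to 12.9 CPM with a median of 8.20. The 5 DPAn-6 mice had 4.46, 3.25, 2.92, 4.08 and 2.90 CPM. All CTRL mice but replicate 7 were above every DPAn-6 mouse, and that replicate lay between the DPAn-6 values. CTRL mice averaged 8.62 ± 3.04 CPM (SD, n = 7), against 3.52 ± 0.71 CPM (SD, n = 5) after DPAn-6. H2-Ab1 fell by 1.32 on the log2 scale (SE 0.25, edgeR adjusted p = 0.0170). An exact permutation test on the mean log2 CPM, two-sided, gave p = 0.00758, where 792 splits allow no p below 0.00126. The edgeR adjusted p was above 0.05 without DPAn-6 replicate 3 (0.0683) or replicate 5 (0.0582), with the choroid plexus transcript Ttr as covariate (0.358) and in the 14-month mice only (0.0788). Over the 26 alternatives it ran from 3.14e-05 to 0.358.

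H2-Aa (ENSMUSG00000036594; chromosome 17, 34282744 to 34287823, minus strand) encodes the I-A alpha chain that pairs with the H2-Ab1 product. CTRL mice ranged from 3.98 to 15.6 CPM with a median of 7.82. The DPAn-6 mice had 6.63, 3.59, 3.32, 2.56 and 3.21 CPM. DPAn-6 replicate 1 stood inside the CTRL range and the other 4 DPAn-6 mice were below every CTRL mouse. The fitted difference was −1.26 on the log2 scale (SE 0.32, 2.40-fold, edgeR adjusted p = 0.0643; exact permutation p = 0.0152). The adjusted p dropped under 0.05 when CTRL replicate 3 (0.0126), CTRL replicate 7 (0.0303) or DPAn-6 replicate 1 (0.0492) was left out.

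H2-Eb1 (ENSMUSG00000060586; chromosome 17, 34305867 to 34316674, plus strand) encodes the I-E beta chain. CTRL mice ranged from 2.13 to 8.72 CPM with a median of 5.27. The DPAn-6 mice had 3.37, 2.02, 2.06, 2.30 and 2.68 CPM. As for H2-Ab1, CTRL replicate 7 lay among the DPAn-6 values, and CTRL replicate 3 was below DPAn-6 replicate 1. The fitted difference was −1.20 (SE 0.30, 2.30-fold, edgeR adjusted p = 0.0587; exact permutation p = 0.0202), which passed adjustment without CTRL replicate 3 (0.0102) or replicate 7 (0.0147). The first bases of H2-Eb1 overlap Gm20513, an antisense gene with 0 counts in all 12 mice, and the partner alpha chain locus H2-Ea-ps, a polymorphic pseudogene in the annotation, and the neighbouring beta chain gene H2-Eb2 were also at 0 counts in all 12 mice.

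Cd74 (ENSMUSG00000024610; chromosome 18, 60803848 to 60812652, plus strand) encodes the invariant chain, which holds the groove closed during assembly and also acts as a receptor for the cytokine MIF. It was the member with the most counts, 222 to 1050 per mouse. CTRL mice ranged from 13.4 to 53.8 CPM with a median of 32.2. The DPAn-6 mice had 25.3, 14.3, 13.5, 14.6 and 16.3 CPM. The 6 CTRL mice other than replicate 7 were above every DPAn-6 mouse, and replicate 7 was just below them all. The fitted difference was −1.03 (SE 0.26, 2.04-fold, edgeR adjusted p = 0.0641; exact permutation p = 0.0227). It passed adjustment without CTRL replicate 3 (0.0234) or replicate 7 (0.0112).

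H2-DMa (ENSMUSG00000037649; chromosome 17, 34119541 to 34139101, plus strand) encodes the alpha chain of the peptide exchanger. CTRL mice ranged from 10.4 to 15.6 CPM with a median of 14.6. The DPAn-6 mice had 10.8, 10.5, 9.81, 11.2 and 12.6 CPM. CTRL replicate 3 was lower than 4 of the 5 DPAn-6 mice, and the other 6 CTRL mice were above all 5. The fitted difference was −0.35 (SE 0.10, 1.27-fold, edgeR adjusted p = 0.111; exact permutation p = 0.0164), with an adjusted p of 0.0126 without CTRL replicate 3. Its annotated span overlaps Brd2 on the other strand, and the strand setting of the counting is not given in the sources used here.

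Ciita (ENSMUSG00000022504; chromosome 16, 10480059 to 10528418, plus strand), the co-activator, was near the limit of detection. The CTRL mice had 2 to 4 counts with a median of 0.176 CPM, and the DPAn-6 mice had 5, 3, 2, 1 and 0 counts. The groups overlapped, and the gene did not pass the filter. Summed over mice it had 21 counts in CTRL, or 0.173 CPM (95% exact Poisson interval 0.107 to 0.265), and 11 in DPAn-6, or 0.112 CPM (0.0561 to 0.201), intervals that cover counting error only. The ratio of DPAn-6 to CTRL was 0.650 (95% exact interval 0.283 to 1.41), so no difference was detected, and a ratio within that interval could not be told from 1 at this depth. The exact permutation p was 0.116 (0.0152 without DPAn-6 replicate 1), and without a filter the fitted difference was −0.56 in edgeR (SE 0.58) and −0.59 in DESeq2 (SE 0.69).

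**Figure D2:**
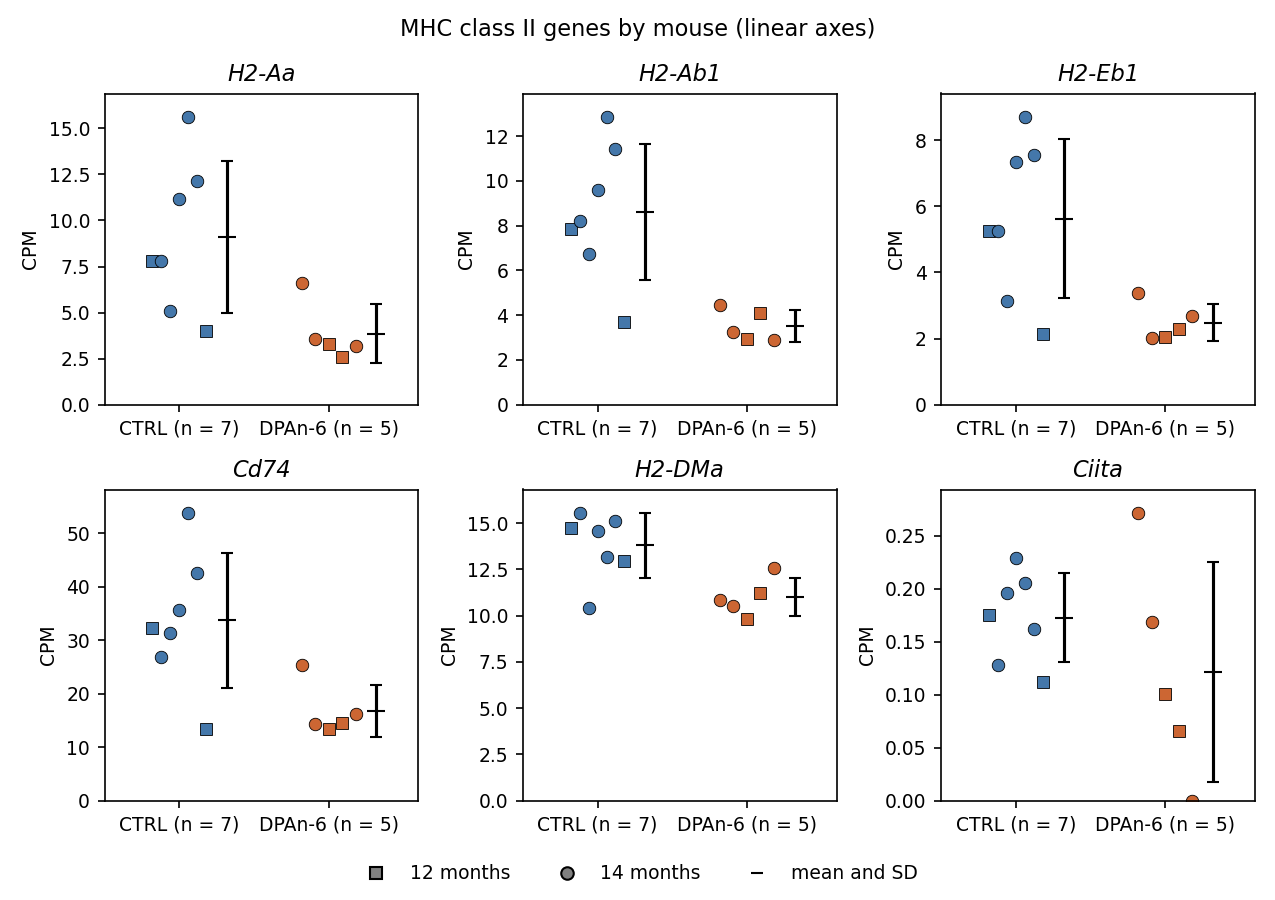
CPM of the 6 members in each mouse, CTRL in blue (n = 7) and DPAn-6 in orange (n = 5), squares at 12 and circles at 14 months, with the mean and SD beside each group. For H2-Aa, H2-Ab1, H2-Eb1 and Cd74 the lowest CTRL point is replicate 7, a 12-month mouse. It is level with the DPAn-6 mice for H2-Ab1, H2-Eb1 and Cd74, and above 4 of the 5 for H2-Aa. The H2-DMa groups lie closer together and Ciita stays at or below 0.272 CPM.

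Per kilobase of annotated exon, Cd74 led in CTRL mice with 20.1 ± 7.5 CPM per kilobase (SD, n = 7). H2-DMa (3.03 to 4.51), H2-Ab1 (3.36 ± 1.18), H2-Eb1 (2.89 ± 1.24) and H2-Aa (2.39 ± 1.09) followed, with neighbours in that order closer than the SDs of the chains, and Ciita was last at 0.0181 ± 0.0044. The exon lengths join all annotated transcripts, which lowers these levels for genes with long minor transcripts. In DPAn-6 mice the level was 9.99 ± 2.89 CPM per kilobase (SD, n = 5) for Cd74, 3.19 ± 0.30 for H2-DMa, 1.37 ± 0.28 for H2-Ab1, 1.28 ± 0.29 for H2-Eb1 and 1.02 ± 0.42 for H2-Aa. H2-DMa thus stood apart from the 3 chains there by more than their SDs.

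Whether the chains differed from H2-DMa was tested within each mouse, by exact permutation of the difference of log2 CPM, a test added after the data were seen. The difference H2-Ab1 minus H2-DMa was −0.76 ± 0.55 (SD, n = 7) for CTRL mice, against −1.65 ± 0.32 (SD, n = 5) after DPAn-6, a shift of −0.90 (exact permutation p = 0.0126). The shift was −0.85 for H2-Aa (exact permutation p = 0.0391), −0.74 for H2-Eb1 (exact permutation p = 0.0492) and −0.62 for Cd74 (exact permutation p = 0.0821). Against the mean log2 CPM of 10 microglia markers, the shift was −0.81 for H2-Ab1 (exact permutation p = 0.0278), −0.76 for H2-Aa (exact permutation p = 0.0909), −0.65 for H2-Eb1 (exact permutation p = 0.124), −0.53 for Cd74 (exact permutation p = 0.154) and 0.09 for H2-DMa (exact permutation p = 0.574). None of these 9 comparisons passed Benjamini-Hochberg adjustment, with exact permutation adjusted p from 0.111 to 0.574.

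The chains and the invariant chain varied together from mouse to mouse. Over the 6 pairs among H2-Aa, H2-Ab1, H2-Eb1 and Cd74, Pearson's r of log2 CPM across the 12 mice was 0.927 to 0.959 (permutation, p adjusted over 15 pairs at most 0.000250) and Spearman's rho 0.839 to 0.951 (permutation, adjusted p at most 0.00340). With each group centred on its own mean r was 0.852 to 0.921 (permutation, adjusted p at most 0.00167). Within the CTRL mice alone r was at least 0.883. Within the 5 DPAn-6 mice, few for an r of their own, it ran from 0.478 (H2-Aa and H2-Ab1) to 0.950 (H2-Eb1 and Cd74). It was 0.580 there for H2-Ab1 and H2-Eb1. Leaving out the pair of mice with the most extreme levels of the first gene kept r at 0.898 or above.

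H2-DMa had lower correlations with the chains. Its pooled r, with the permutation adjusted p of r, was 0.683 with H2-Ab1 (p = 0.0353, rho 0.671) and 0.747 with H2-Eb1 (p = 0.0192, rho 0.713). It was 0.656 with H2-Aa (permutation adjusted p = 0.0410, rho 0.664) and 0.553 with Cd74 (permutation adjusted p = 0.0798, rho 0.573). With the groups centred these became 0.282, 0.510, 0.315 and 0.137, and none passed (permutation adjusted p from 0.237 to 0.690). By Pearson's r no pair with Ciita passed either way. By Spearman's rho only H2-Aa with Ciita passed pooled (rho 0.678, permutation adjusted p = 0.0336), and not with the groups centred (permutation adjusted p = 0.0913). In all, 9 of 15 pairs passed pooled and 6 of 15 centred by Pearson's r. All values come from the same 12 libraries, so depth, tissue sampling and the sex of each mouse are shared by every pair. The paper states that both groups held females and males, and the labels do not give each mouse's sex. Xist, taken here as a marker of sex, had 25 to 23239 counts per mouse. With Xist as covariate the treatment fold change was −1.26 for H2-Ab1 (edgeR adjusted p = 0.0132) and −1.14 for H2-Aa (0.0827). It was −1.09 for H2-Eb1 (edgeR adjusted p = 0.0588), −0.97 for Cd74 (0.0827) and −0.35 for H2-DMa (0.124).

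**Figure D3:**
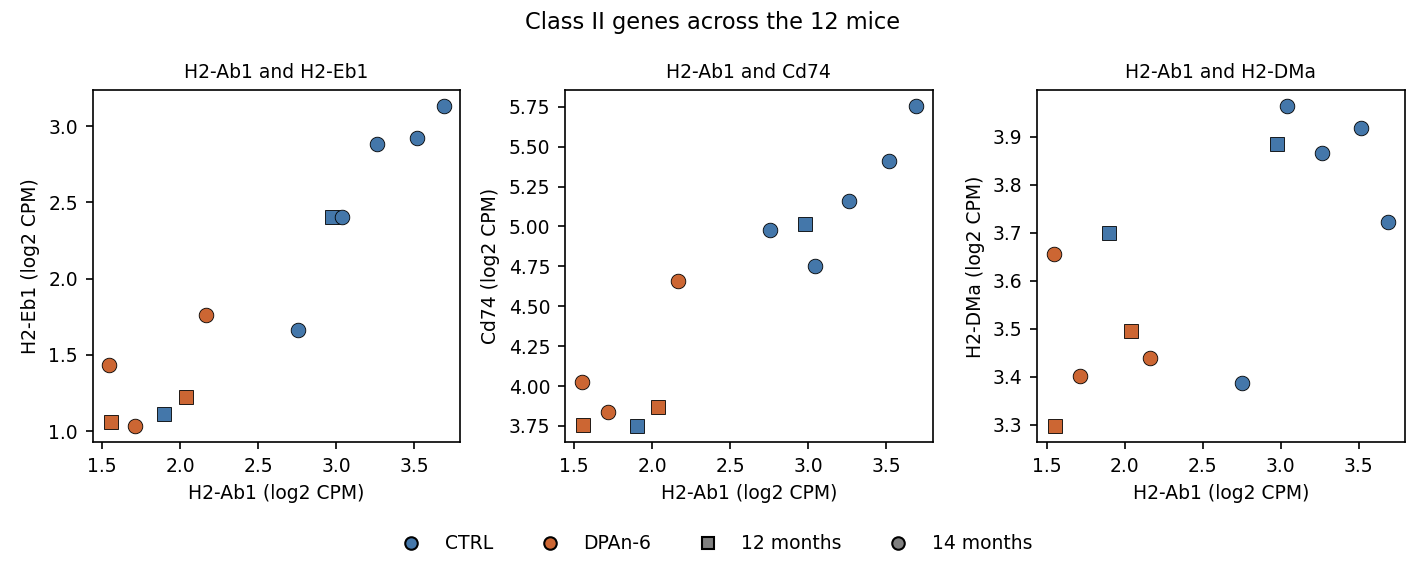
log2 CPM of H2-Ab1 against H2-Eb1, Cd74 and H2-DMa in the 12 mice, with colour for group and shape for age. Pooled r over the 12 mice was 0.951 and 0.948 in the first 2 panels and 0.683 for H2-DMa, and the DPAn-6 mice and CTRL replicate 7 sit at the low end of H2-Ab1.

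The 5 genes most like the mean standardized log2 CPM of H2-Aa, H2-Ab1, H2-Eb1 and Cd74, by Pearson's r over the 12 mice with the groups centred, were Gm44005 (r = 0.903), Dcst2 (0.897), Glyr1 (0.882), Gm42595 (0.861) and Zfp90 (0.840), out of 15684 genes other than those 4. Gm44005, Dcst2 and Gm42595 had at most 30 counts in any mouse. None of the 5 passed the treatment test. H2-DMa came 2017th on that measure with r = 0.325. With 12 mice and this many genes such ranks are a description.

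The partners of the class II pathway, 16 genes in the table, give the wider picture. Of 13 tested, 1 passed and was lower, beside 1.14% of all genes. At an unadjusted p below 0.05, 8 were lower and none higher, beside 9.02% of all genes lower. The median log2 fold change was −0.28 beside 0.00 over all genes. Ctsh, a lysosomal aminopeptidase, fell by 0.56 on the log2 scale (SE 0.12, edgeR adjusted p = 0.0265). H2-DMb1, a beta chain that pairs with the H2-DMa product and shares much of its sequence with its neighbour H2-DMb2, so that reads may be split between them, had a fold change of −0.77 (SE 0.18, edgeR adjusted p = 0.0522), and Ifi30, a thiol reductase that opens disulfide bonds in endosomal antigens, −0.58 (SE 0.14, edgeR adjusted p = 0.0533). The H2-DM regulators H2-Ob (−0.52, SE 0.19, edgeR adjusted p = 0.187) and H2-Oa (−0.38, SE 0.24, edgeR adjusted p = 0.513) did not pass.

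The proteases that cut the invariant chain did not pass. Ctss, cathepsin S, which makes the last cuts, had −0.28 (SE 0.13, edgeR adjusted p = 0.323). The fold change was −0.43 for Ctsd, −0.19 for Ctsl, −0.17 for Lgmn and −0.03 for Ctsb, with edgeR adjusted p of 0.111, 0.221, 0.263 and 0.897. Sppl2a, the protease for the membrane stub of CD74, had −0.13 (edgeR adjusted p = 0.795). The ubiquitin ligases that take class II off the surface had 0.07 (March1) and 0.04 (March8). The count of 1 partner gene was not stable. It was 5 without the 3 CTRL libraries high in Ttr, 4 by DESeq2 or without CTRL replicate 3, 2 without CTRL replicate 7, and 0 with Ttr as covariate, in the 14-month mice, with the replicate block, or without CTRL replicate 2 or 4 or DPAn-6 replicate 2, 3, 4 or 5.

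**Figure D4:**
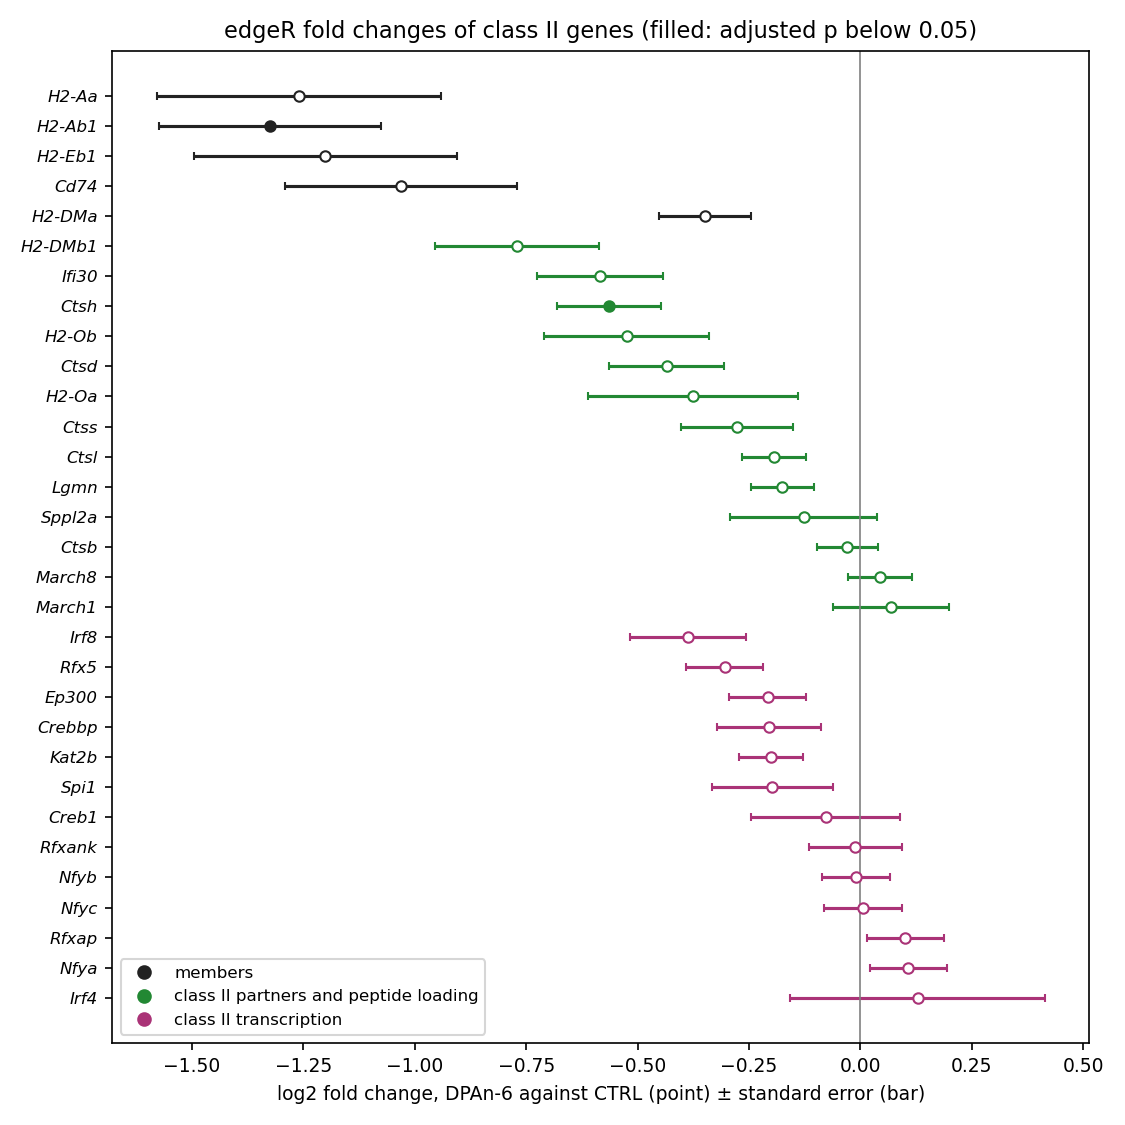
edgeR log2 fold change of DPAn-6 against CTRL (point) with its standard error (bar) for the 5 tested members, 13 partners and 13 transcription genes. H2-Aa, H2-Ab1, H2-Eb1 and Cd74 lie at or below −1.03, partners spread between −0.77 and 0.07, and filled points (H2-Ab1 and Ctsh) passed at an adjusted p below 0.05.

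Among 13 genes of class II transcription 0 passed in edgeR, with a median of −0.08, while DESeq2 called 1 and limma-voom 0. At an unadjusted p below 0.05, 4 were lower and none higher, beside 9.02% of all genes lower. Rfx5, the X-box subunit, had 4.60 ± 0.13 log2 CPM in CTRL and a fold change of −0.30 (SE 0.09, edgeR adjusted p = 0.0954), whereas its partners Rfxap (0.10) and Rfxank (−0.01) and the NF-Y subunits Nfya (0.11), Nfyb (−0.01) and Nfyc (0.01) were near 0. Irf8, a myeloid factor, had −0.39 (SE 0.13, edgeR adjusted p = 0.166) and Spi1, which encodes PU.1, −0.20 (edgeR adjusted p = 0.560).

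Interferon gamma is the classical inducer of Ciita. Of 19 tested genes of its signalling and targets 0 passed in edgeR, DESeq2 or limma-voom, and the median was −0.13. At an unadjusted p below 0.05, 1 was lower, beside 9.02% of all genes. It was Iigp1, an interferon-induced GTPase (−0.84, SE 0.31, edgeR adjusted p = 0.225). Ifng itself had 0 to 3 counts per mouse. The receptor genes Ifngr1 (−0.13) and Ifngr2 (0.10) and the kinases Jak1 (0.09) and Jak2 (−0.06) were near 0. The summed CPM of the list was 365 to 457 in CTRL and 401 to 433 in DPAn-6. The class I pathway genes Tap1 (−0.17) and Psmb8 (−0.28) had edgeR adjusted p of 0.725 and 0.602.

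Of 8 tested genes of co-stimulation and CD74 partners 0 passed in edgeR and limma-voom and 1 in DESeq2, and the median was −0.14. At an unadjusted p below 0.05, 1 was lower, beside 9.02% of all genes. Icosl, a ligand for the T cell receptor ICOS, had −0.45 (SE 0.11, edgeR adjusted p = 0.0559) and Cd86 −0.37 (SE 0.20, edgeR adjusted p = 0.437). The CD74 ligand Mif (0.09) and co-receptor Cd44 (0.11) were near 0, with edgeR adjusted p of 0.913 and 0.890.

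Some markers of microglia and of border macrophages, cells that can carry class II, were also lower in DPAn-6. Of 10 microglia markers 3 passed and were lower (median −0.48), with a summed level of 835 to 1192 CPM in CTRL and 631 to 823 in DPAn-6. Of 13 disease-associated microglia markers 4 passed and were lower (median −0.41), with 605 to 933 CPM in CTRL and 409 to 584 in DPAn-6. Of 6 tested border macrophage markers 3 passed and were lower (median −1.11), with 34.0 to 51.0 CPM in CTRL and 23.4 to 32.9 in DPAn-6, and Mrc1, a mannose receptor, fell by 1.29 (edgeR adjusted p = 0.00260). Over all genes 1.14% passed and were lower. The summed levels of these 3 lists did not overlap between the groups, and how often sums of other genes do so was not tested. Stab1 made up most of the border macrophage sum, with a mean of 27.9 of 41.8 CPM in CTRL and 21.8 of 27.8 in DPAn-6. The ranges of Stab1 itself overlapped between the groups, and it did not pass (−0.38, SE 0.14, edgeR adjusted p = 0.228). The counts of 3, 4 and 3 became 0, 1 and 1 with Ttr as covariate and 0, 0 and 1 in the 14-month mice only, but 4, 7 and 4 without the 3 CTRL libraries high in Ttr. With 1 mouse left out they ran from 1 to 5 for microglia (5 without CTRL replicate 3, and 1 without any of CTRL replicates 2, 4 and 6 and DPAn-6 replicates 1 to 4), 3 to 6 for disease-associated microglia and 2 to 4 for border macrophages. Not every marker was lower, with fold changes of −0.05 for Cx3cr1, 0.01 for Lpl and 0.12 for Cd63. Their part in the class II difference was not tested beyond the within-mouse comparison with microglia markers. Among the 6 tested border macrophage markers, centred r with the class II mean was 0.277 for Stab1, 0.196 for F13a1 and 0.059 for Lyve1. It was 0.016 for Mrc1, −0.079 for Cd163 and −0.384 for Cbr2. Without centring, r in the same order was 0.547, 0.716, 0.479, 0.688, 0.562 and 0.213. These values are a description.

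Some markers of lymphocytes and dendritic cells were at or near 0, and others in the same lists were not. The B cell gene Ms4a1 had at most 1 count in any mouse, the T cell genes Cd3d, Cd3e and Cd3g at most 1, 5 and 4, and the dendritic cell genes Xcr1 and Clec9a at most 1 and 2. Other genes of the lists had more, with 531 to 1026 counts of Ighm, 0 to 58 of Igkc, 292 to 697 of Lag3, 24 to 150 of Cd4, 99 to 243 of Flt3 and 173 to 389 of Zbtb46, and make up most of the sums. Trac had 4 to 17 counts, Cd209a 5 to 17, Clec10a 5 to 17 and Batf3 4 to 40. No gene of these 3 lists passed in edgeR, DESeq2 or limma-voom. At an unadjusted p below 0.05, 1 of 3, 1 of 3 and 2 of 5 tested genes were lower, beside 9.02% of all genes. The summed levels were 33.7 to 58.4 CPM in CTRL and 27.2 to 44.6 in DPAn-6 for B cells, 24.1 to 51.0 and 20.8 to 32.5 for T cells, and 19.1 to 29.7 and 23.9 to 26.1 for dendritic cells. Markers of cortical neurons summed to 8966 to 11969 CPM in CTRL and 9349 to 9657 in DPAn-6, so the labelled tissue's neurons were present in every library.

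Choroid plexus transcripts differed strongly among CTRL libraries: Ttr had 23880, 18344 and 2558 counts in CTRL replicates 2, 5 and 3 and 32 to 420 in the other 9 mice. The summed choroid plexus markers were 13.1 to 1707 CPM in CTRL and 7.85 to 23.6 in DPAn-6. None of the 5 tested passed in edgeR (5 by DESeq2 and 0 by limma-voom). At an unadjusted edgeR p below 0.05 all 5 were lower, beside 9.02% of all genes. With those 3 libraries left out, an alternative added after the data were seen, the fold change was −1.24 for H2-Ab1, −1.20 for H2-Aa, −1.18 for H2-Eb1, −0.90 for Cd74 and −0.40 for H2-DMa, and all but Cd74 (edgeR adjusted p = 0.0629) passed. With Ttr as covariate they were −1.07, −0.98, −0.93, −0.70 and −0.33, and none passed. Ttr itself had a fold change of −6.01 on the log2 scale (SE 1.46, edgeR adjusted p = 0.0553). This covariate therefore overlaps with the group, and the fit cannot fully separate Ttr from treatment.

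**Figure D5:**
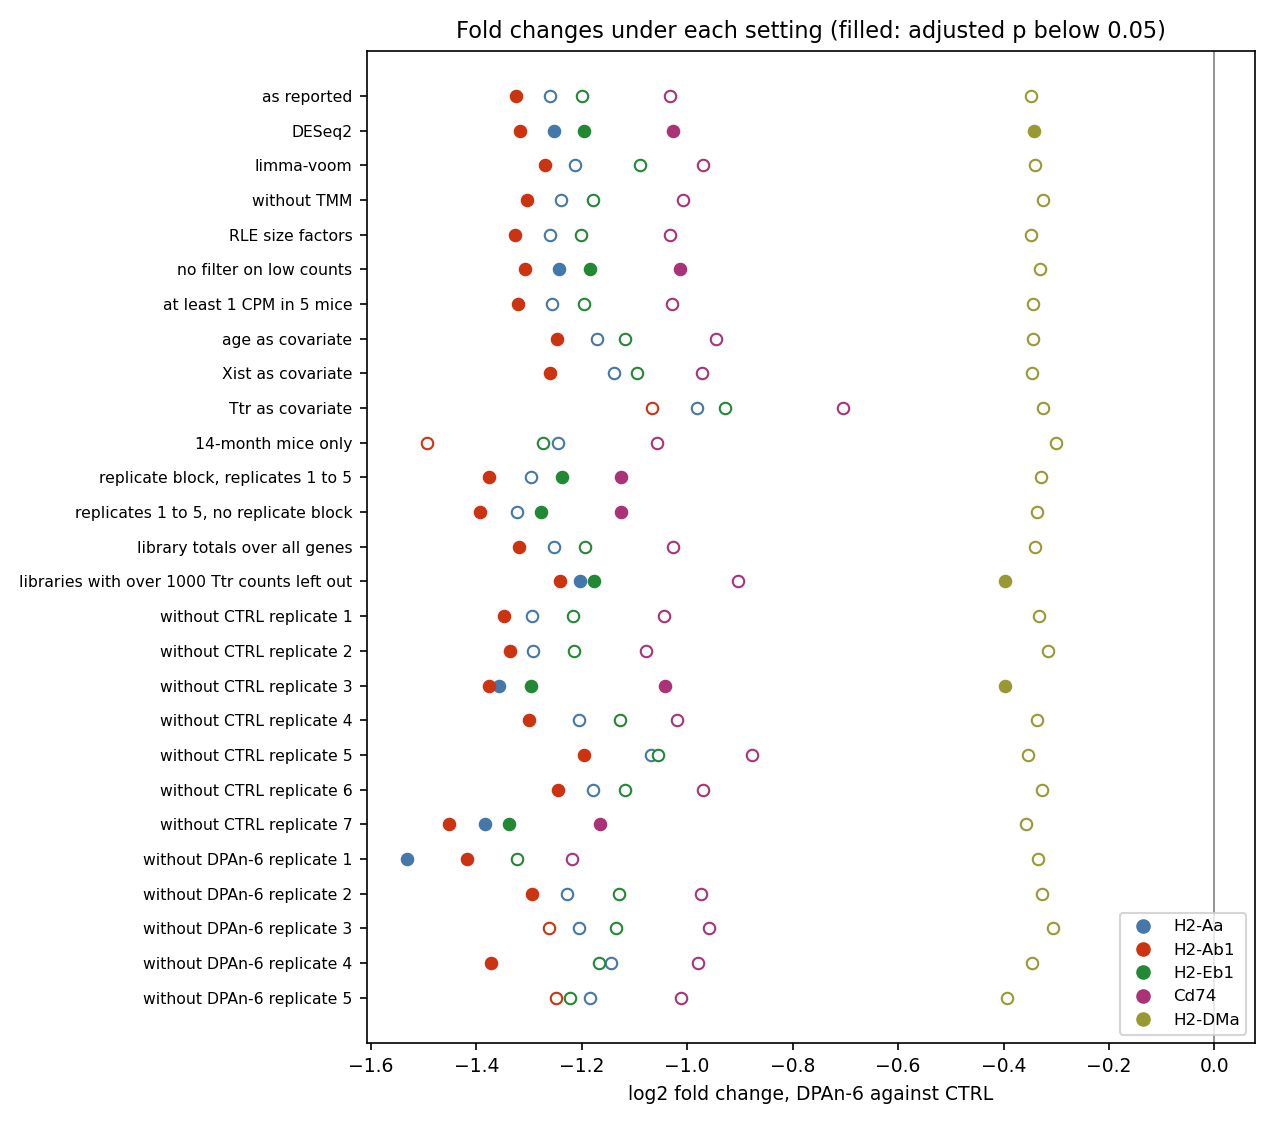
log2 fold change of DPAn-6 against CTRL for the 5 tested members under each processing setting, filled where the adjusted p was below 0.05. Every point lies below 0, H2-DMa between −0.40 and −0.30 and the other 4 members at −0.70 or below, while the fill changes with the setting.

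Age was compared in the same libraries, with group as a covariate. On the log2 scale the 14-month minus 12-month difference was 0.72 for H2-Aa (SE 0.30) and 0.59 for Cd74 (SE 0.24), the 2 members with an unadjusted edgeR p below 0.05, beside 1.13% of all genes higher at that threshold. It was 0.59 for H2-Eb1 (SE 0.29), 0.44 for H2-Ab1 (SE 0.25) and 0.04 for H2-DMa (SE 0.11). After adjustment no member passed, and edgeR, DESeq2 and limma-voom each called 0 genes (0% of those tested), with 279 genes at an unadjusted edgeR p below 0.05. The 12-month CTRL group is 2 mice that differed widely, with 7.78 and 3.98 CPM of H2-Aa, and with CTRL replicate 7 left out the age difference was 0.51 for H2-Aa, 0.33 for Cd74, 0.30 for H2-Eb1 and 0.15 for H2-Ab1. H2-Aa and Cd74 then no longer had an unadjusted edgeR p below 0.05.

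The treatment difference by age was tested as an interaction. It was −0.77 for H2-Ab1 (SE 0.46), −0.52 for H2-Eb1, −0.36 for Cd74, −0.26 for H2-Aa and 0.09 for H2-DMa, and no member had an unadjusted p below 0.05, beside 4.26% of all genes. In H2-Ab1 the CTRL mice had 5.77 ± 2.93 CPM (SD, n = 2) at 12 and 9.76 ± 2.46 (SD, n = 5) at 14 months, and the DPAn-6 mice 3.50 ± 0.82 (SD, n = 2) and 3.54 ± 0.82 (SD, n = 3).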

How the data were processed

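Cortex poly(A) RNA of 12 mice was sequenced, 1 library each. Per the labels and the study's methods, the authors aligned reads with STAR 2.5.3a to GRCm38 and deposited raw counts per gene, unnormalized; the strand column is not given in the sources used here. Gene names came from GENCODE M21 (50339 of 50563 identifiers matched).

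Groups were taken from the labels (CTRL, n = 7; DPAn-6, n = 5). The test across genes was that of edgeR 4.0.16 under R 4.3.3 (TMM, filterByExpr, quasi-likelihood, 15688 genes, Benjamini-Hochberg). Library totals were those of the genes tested, a choice made after a fit with totals over all genes had been seen (243 against 235 genes called). DESeq2 1.42.0 and limma 3.58.1 were alternatives. log2 CPM used a pseudocount of 0.5 and totals over all genes. Pairs used 100000 permutations. The edgeR script was tested on simulated data. Named genes were the members, list genes that passed or had high expression, the 5 genes most like the chains, Ttr and Xist where used as covariates; list genes outside that rule were chosen after their values were seen. Members and lists were chosen with earlier results of these data known. With 15208803 to 26520251 counts per library, 3 counts stand for 0.113 to 0.197 CPM. Values of some list genes are not reported here.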

Additional observations from a re-analysis of the deposited data

Results flagged for a closer look

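No member's log2 CPM in any of the 12 gene-by-group sets examined held a mouse that stood apart by Dixon's criterion, which chance meets in about 1 set in 20, and no treatment-by-age difference of a member passed an unadjusted p of 0.05.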

How the results depend on the processing

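Each of the 5 tested members kept its lower fitted level in DPAn-6 under all 26 alternatives of the treatment fit, and no result with a test reversed under any alternative run. The 243 genes called became 687 by DESeq2, 17 with Ttr as covariate, 9 in 14-month mice, and 541 without the 3 libraries high in Ttr (added after the data were seen); leaving out 1 mouse gave 64 to 953, the extremes without DPAn-6 replicate 3 and CTRL replicate 3. H2-Ab1 no longer passed with Ttr as covariate (−1.07) or in 14-month mice (−1.49), and ranged from −1.45 to −1.20 with 1 mouse left out. H2-Aa passed by DESeq2 (−1.25), with no filter (−1.24) and without the Ttr-high libraries (−1.20), ranging from −1.53 to −1.07 with 1 mouse left out. H2-Eb1 passed in the same settings (−1.20, −1.18, −1.18), ranging from −1.34 to −1.06. Cd74 passed by DESeq2 (−1.03) and with no filter (−1.01), ranging from −1.22 to −0.88. H2-DMa passed by DESeq2 (−0.34) and without the Ttr-high libraries (−0.40), ranging from −0.40 to −0.31. The causes were not tested. Ciita's exact permutation difference ranged from −1.26 to −0.27 with 1 mouse left out, and its exact permutation p was 0.0152 without DPAn-6 replicate 1. Pairs passing by Pearson's r were 7 to 11 pooled and 6 to 8 centred.

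Replicate numbers are shared by the groups, but deviations of same-numbered mice correlated between −0.126 and 0.219, so the numbers were not taken as pairs. With the replicate block, replicates 1 to 5 gave 69 genes, H2-Eb1 at −1.24 and Cd74 at −1.13 passing; the same 10 mice without the block gave 148 genes, −1.28 and −1.13, also passing. Depth limits Ciita, at 0 to 5 counts per mouse.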
